A study of Mus musculus with 26 samples.

Results

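The MYBQKI5 fusion was set against MYBtr, the MYB construct without a QKI name, to ask what the QKI5 tail adds to or takes from the activity of MYBtr in mouse neural stem cells. The comparison holds the 3 MYBQKI5 arrays and the 3 MYBtr arrays of pools 1 to 3, chosen by their labels, which makes 6 of the 26 arrays of the series, and it was made within each pool. All samples were neural stem cells isolated from C57BL6 wild-type embryos of age E14.5, all carried a gene delivered by lentivirus, and total RNA was read on Affymetrix arrays. The 5 groups that shared one estimate of the spread were MYBQKI5 (3 arrays), MYBtr (3), MYBQKI6 (3), QKItr (3) and eGFP, a fluorescent control protein (6 arrays, 2 in each pool). The labels leave tr unexplained and give neither the promoter of a construct nor whether pools were separate litters or cultures. The p-values therefore describe the spread among these arrays only. The remaining 8 arrays, which had Qk or LacZ suppressed, were not used here.

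MYB is a transcription factor that binds DNA through its amino-terminal repeats, holds blood and other progenitors in a dividing state, and in mouse is encoded by Myb. QKI belongs to the STAR family of RNA-binding proteins and acts in splicing, mRNA stability and myelination, and Qk is its mouse gene. QKI5 and QKI6 are splice forms that differ at the carboxy-terminal end, and QKI5 is known as the nuclear form. The MYBQKI fusion, which loses the carboxy-terminal part of MYB, is found in angiocentric glioma, a childhood brain tumour.

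All levels below are log2 signals of the deposited arrays, a gene's level is the mean over its probe sets, and all differences are MYBQKI5 minus MYBtr on that log2 scale. The 6 arrays had medians of 5.61 to 5.73, and MYBQKI5 of pool 1 had the lowest median and upper quartile of the 18 arrays of the pool set. Neural stem cell markers stood high, with 17 of 19 measured above the median gene, and their summed level was 13.67 to 13.88 with MYBQKI5 and 13.62 to 13.85 with MYBtr. Of the other lists, 15 of 19 astrocyte markers, 8 of 15 oligodendrocyte precursor markers and 9 of 21 neuron markers also lay above the median gene. Few markers of the remaining cell types did: 1 of 15 myelinating oligodendrocyte markers, 2 of 14 microglia and immune markers and 2 of 16 vascular and fibroblast markers. In such bulk samples, fewer cells of a type and less RNA per cell cannot be told apart.

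No gene was called between the 2 constructs. In limma with the pool as a block, 0 of 23152 genes (0%) had a Benjamini-Hochberg adjusted p under 0.05, the threshold for a call. At an unadjusted p under 0.05 there were 1926 genes (8.32%), of which 1041 were lower with MYBQKI5 (4.5%) and 885 higher (3.82%). Only 19 genes (0.0821%) were at least 2-fold apart in their means, and 1546 (6.68%) had groups that did not overlap. Genes are not independent replicates, but across them the 2 arrays of a pool correlated at 0.982, 0.989 and 0.991 in pools 1, 2 and 3. The SD of the gene differences was 0.377, 0.308 and 0.276 in the same pools, so pool 1 held the widest differences. The count of calls was 6 when dim genes were left out and 21 without the MYBtr array of pool 3 (19 lower and 2 higher with MYBQKI5), as the closing section sets out.

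Myb, the part both constructs share, was not called different between them. Myb stood at 6.82, 6.80 and 7.34 in pools 1, 2 and 3 with MYBQKI5, against 7.12, 7.36 and 7.23 with MYBtr. The groups overlap, with MYBQKI5 lower in pools 1 and 2 and higher in pool 3. The difference was -0.25 (SE 0.21, 95% confidence interval -0.69 to 0.19, limma adjusted p = 0.78). With eGFP the mean of Myb was 4.62. Its brightest probe set, 17239679, stood at 12.77, 11.92 and 12.22 with MYBQKI5, against 12.68, 12.26 and 12.18 with MYBtr. Of the 18 Myb probe sets, 14 were lower and 4 higher with MYBQKI5, and none had groups that did not overlap. Whether a Myb probe set reads the delivered construct, the cells' own Myb or both was not tested.

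Qk, the gene of the tail, differed little as a whole but unevenly along its probe sets. Its mean was 10.70, 10.74 and 10.60 with MYBQKI5, against 10.39, 10.48 and 10.64 with MYBtr. The difference of 0.17 (SE 0.16, 95% confidence interval -0.17 to 0.52, limma adjusted p = 0.809) was not called, and it turned to -0.06 when its brightest probe set was used alone. Probe set 17340760 stood at 12.82, 11.84 and 11.76 with MYBQKI5, against 10.75, 11.02 and 11.06 with MYBtr, so that every MYBQKI5 array lay above every MYBtr array. This difference of 1.20 (SE 0.28) was the highest of the 15 Qk probe sets, with a limma adjusted p of 0.51 over all 269751 probe sets. The same probe set averaged 10.98 with MYBQKI6, 12.25 with QKItr and 11.21 with eGFP, so the MYBQKI6 mean lay close to that of MYBtr. Probe set 17340765 stood at 12.20, 12.07 and 12.10 with MYBQKI5, against 11.41, 11.68 and 11.82 with MYBtr, again without overlap, and averaged 12.17 with MYBQKI6.

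**Figure D1:**
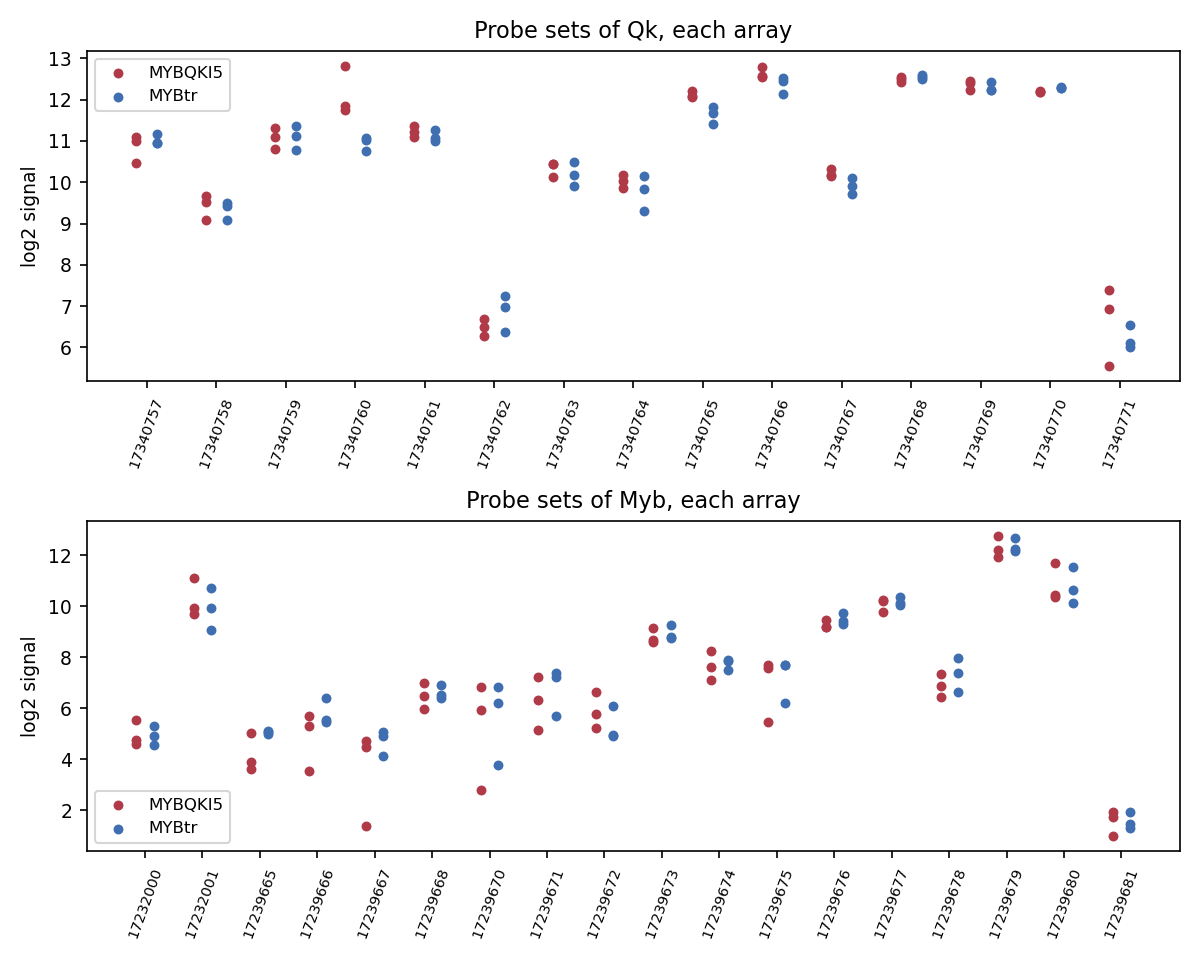
Log2 signal (vertical axes) of each probe set of Qk (above) and Myb (below) on each of the 3 MYBQKI5 arrays (red, left) and 3 MYBtr arrays (blue, right). Qk probe set 17340760 lies at 11.76 to 12.82 with MYBQKI5 and at 10.75 to 11.06 with MYBtr, while Myb probe set 17239679 lies at 11.92 to 12.77 and at 12.18 to 12.68.

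Of the 15 Qk probe sets, 5 had groups that did not overlap, beside 20999 of all 269751 probe sets (7.78%). A test of unequal probe set differences within a gene (diffSplice of limma, Simes p per gene) gave Qk an adjusted p of 0.0278 and Myb one of 0.971. Across the array this test called 938 of 20833 genes (4.5%). A diffSplice test between the 2 eGFP repeats of each pool called 252 of 20833 genes (1.21%) and gave Qk an adjusted p of 0.415. It was fitted on the 18 arrays without averaging and compares repeats within a pool. Its share is therefore no measured background for the 4.5%. The diffSplice test treats the probe sets of a gene as independent, so its p-values are too small where probe sets share noise. No single probe set was called in limma (0 of 269751, with 19178 or 7.11% at an unadjusted p under 0.05).

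The named genes of smallest diffSplice p were P2rx7, an ATP-gated channel, Copa, a coatomer subunit, and Pdpk1, a kinase upstream of AKT. Next came Txnrd1, a thioredoxin reductase, Dctn1, a dynactin subunit, and Ddx50, an RNA helicase. These 6 had diffSplice adjusted p values of 8.68e-13 to 2.08e-09, far below the 0.0278 of Qk. Each was led by 1 probe set. That of P2rx7 (17442148) stood at 3.84, 5.64 and 5.70 with MYBQKI5, against 1.77, 4.26 and 2.69 with MYBtr. That of Pdpk1 (17341711) stood at 1.88, 1.65 and 1.93 with MYBQKI5, against 3.89, 8.22 and 3.73 with MYBtr. The leading probe sets of Pdpk1, Copa, Dctn1 and Ddx50 stood at 2.60 or less on all MYBQKI5 arrays, so the size of these differences is uncertain, while that of Txnrd1 stood at 5.41 to 6.65 with MYBQKI5 and 2.57 to 5.46 with MYBtr. The 6 probe sets' own limma adjusted p values were at least 0.469 over all probe sets. Copa was also called between the eGFP repeats.

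Among the genes of smallest p, those lower with the fusion were brighter and further apart than those higher with it, and some were also called with MYBQKI6. The 10 named genes of smallest p that were lower in 3 of 3 pools differed by -0.56 to -1.21 (limma adjusted p 0.0583 to 0.124). Groups that did not overlap were seen in 9 of them, beside 6.68% of all genes. Selection by p makes such separation likely, so it is a description and no support. Of these 10, 4 were also called higher with MYBQKI6 against eGFP: Prune2, Mc5r, Mamdc2 and Ptger4. Of all 23152 genes 2.4% were called so, and since both selections share 1 estimate of the spread, they favour the same genes of small spread. None of the 10 was called lower with MYBQKI6.

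Maoa, the mitochondrial monoamine oxidase A that breaks down serotonin and noradrenaline, stood at 8.13, 7.45 and 7.61 with MYBQKI5, against 8.88, 8.54 and 8.57 with MYBtr. It was lower with MYBQKI5 in each pool, by 0.93 on average (SE 0.13, limma adjusted p = 0.0583). Its means were 7.86 with MYBQKI6, 7.93 with QKItr and 7.92 with eGFP, so that MYBtr was the high group and MYBQKI5 stood near eGFP. Enox2, a cell-surface oxidase, stood at 5.78, 6.27 and 6.19 with MYBQKI5, against 7.24, 7.18 and 6.84 with MYBtr, a difference of -1.01 (SE 0.16, limma adjusted p = 0.0698). Its mean was 6.44 with MYBQKI6 and 6.03 with eGFP, and here too MYBtr was the high group.

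Mc5r, a melanocortin receptor, stood at 4.17, 4.54 and 4.43 with MYBQKI5, against 5.50, 5.85 and 5.35 with MYBtr. The difference was -1.19 (SE 0.18, limma adjusted p = 0.0583), and the means of 4.65 with MYBQKI6 and 3.91 with eGFP place both fusions between MYBtr and eGFP. Prune2 stood at 7.80, 7.99 and 8.08 with MYBQKI5, against 9.56, 9.30 and 8.61 with MYBtr, without overlap. Its difference was -1.21 (SE 0.22, limma adjusted p = 0.124), set against means of 8.70 with MYBQKI6 and 5.10 with eGFP. The differences were -1.77, -1.31 and -0.54 in pools 1, 2 and 3, smallest in pool 3.

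The others lower with MYBQKI5 were Ptger4, a receptor of prostaglandin E2 (-0.87), Myef2, a repressor of the Mbp promoter (-0.79), Mamdc2 (-0.79), Zfp953, a zinc finger protein (-0.76), Fsip2l (-0.63) and L3mbtl2, a Polycomb group protein (-0.56). Mamdc2 averaged 5.36 ± 0.49 with MYBQKI5 and 6.15 ± 0.16 with MYBtr (SD, n = 3 each), with 5.60 in MYBQKI6 cells and 4.48 in eGFP cells. L3mbtl2 averaged 6.96 ± 0.09 with MYBQKI5 and 7.52 ± 0.18 with MYBtr (SD, n = 3 each). Fsip2l lay below percentile 25 of the gene means, where the size of a difference is uncertain.

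The 10 named genes of smallest p in the other direction were Cntnap4, Iltifb, Npy4r, Vps25, Gstp2, Fut4-ps1, Map10, Asb15, Pou5f1 and Slco1a4. They were higher with MYBQKI5 by 0.47 to 0.87 (limma adjusted p 0.0583 to 0.322). Groups that did not overlap, which selection by p favours here too, were seen in 7 of them, and 6 lay below percentile 25. None was called with MYBQKI6 against eGFP in either direction. Cntnap4, a neurexin-like protein of synapses, stood at 4.87, 5.12 and 4.64 with MYBQKI5, against 3.73, 4.15 and 4.17 with MYBtr (0.86, SE 0.13, limma adjusted p = 0.0583). With the probe set of highest mean it differed by -0.04. Vps25, a subunit of the ESCRT-II sorting complex, stood at 5.79, 5.87 and 5.95 with MYBQKI5, against 4.81, 5.39 and 5.38 with MYBtr (0.68, SE 0.14, adjusted p = 0.253). Gstp2 and Iltifb have near-identical copies, and whether their probe sets tell the copies apart was not tested.

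**Figure D2:**
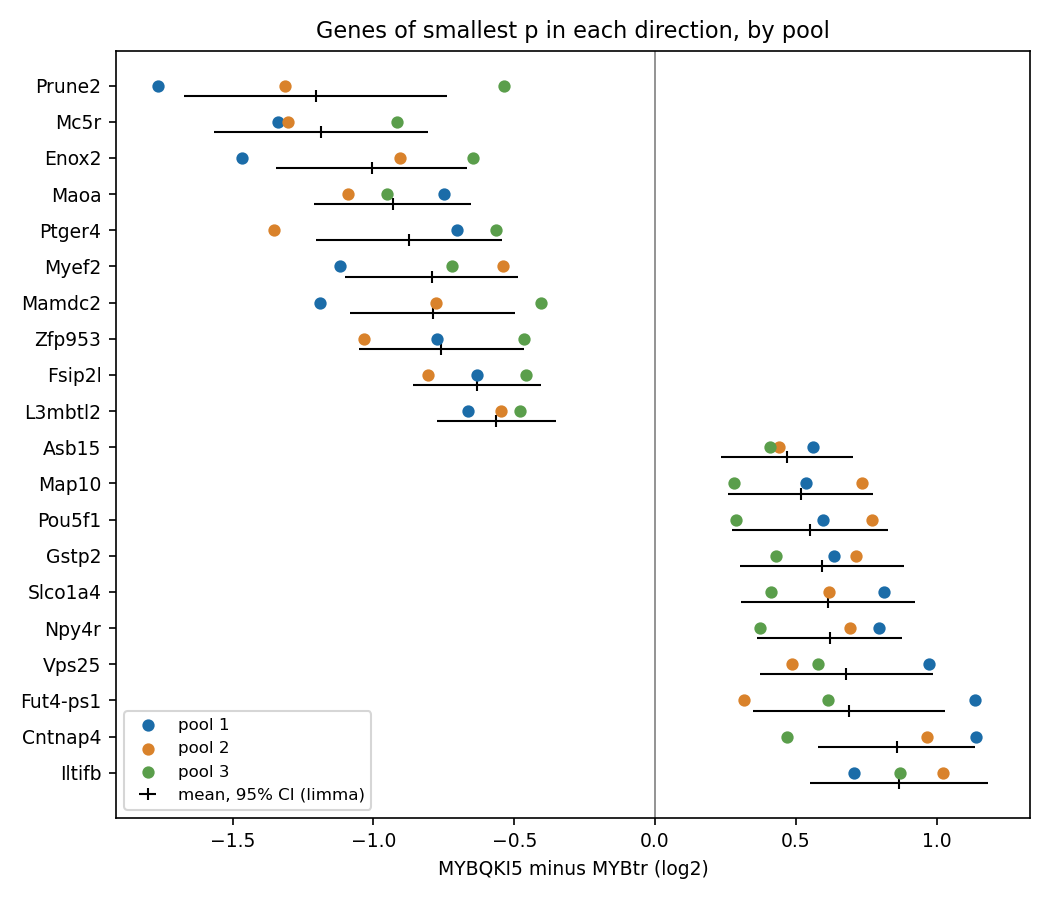
MYBQKI5 minus MYBtr (log2, horizontal axis) of the 10 named genes of smallest p in each direction: coloured points are pools 1 to 3, and the black bar under them is the mean with its 95% confidence interval from limma. The lower genes differ by -0.56 to -1.21 and the higher ones by 0.47 to 0.87, and the points of every gene lie on 1 side of 0, as the naming rule required.

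Some genes further apart in mean were chosen after their values were seen. C230072F16Rik, an RNA without a gene name in these files, stood at 3.49, 4.17 and 4.21 with MYBQKI5, against 8.05, 7.81 and 5.57 with MYBtr (-3.18, SE 0.47, limma adjusted p = 0.0583). Its mean was 5.14 with MYBQKI6, 2.78 with QKItr and 3.00 with eGFP. Cd27, a receptor of the tumour necrosis factor family, stood at 3.84, 3.91 and 3.85 with MYBQKI5, against 6.39, 6.72 and 4.61 with MYBtr (-2.04, SE 0.39, adjusted p = 0.16). In both genes the groups did not overlap and the gap was smallest in pool 3.

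Styx, a catalytically inactive phosphatase, was the exception to that order. It stood at 2.61, 3.38 and 2.92 with MYBQKI5, against 5.21, 5.26 and 5.97 with MYBtr, and the difference of -2.51 (SE 0.61, limma adjusted p = 0.36) was widest in pool 3. Its means were 4.80 with MYBQKI6 (SD 2.14), 5.36 with QKItr (SD 0.04) and 4.17 with eGFP (SD 0.70). MYBQKI5 thus had the lowest mean, but the MYBQKI6 arrays lay far apart. Fitted on the 6 arrays of the comparison alone, Styx was the 1 gene called (adjusted p = 0.0217).

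The genes that respond to MYB were then read as a group. To choose them from arrays that do not enter the difference, the genes called with MYBQKI6 against eGFP in the same fit were taken: 555 of 23152 higher (2.4%) and 462 lower (2%). The spread behind those calls is shared with the MYBQKI5 and MYBtr arrays, so genes of small spread are favoured in the list and in any count of small p. Of the 555 genes raised by MYBQKI6, 426 (76.8%) had a lower mean with MYBQKI5 than with MYBtr, where 11953 of all 23152 genes (51.6%) did. Among them 118 (21.3%) were lower at an unadjusted p under 0.05 and 5 (0.901%) were higher, beside 4.5% and 3.82% of all genes. In 3 of 3 pools 133 (24%) were lower, beside 3096 of all genes (13.4%).

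The median difference over the raised genes was -0.16, against -0.0067 over all genes, and the pools did not share it. It was -0.39 in pool 1, -0.30 in pool 2 and 0.12 in pool 3, and 86.3%, 83.6% and 29.2% of the genes were lower in these pools. From pools 1 and 2 alone the median was -0.33. The median level of the 555 genes was 6.97, 7.20 and 7.30 in pools 1 to 3 with MYBQKI5, against 7.49, 7.52 and 7.08 with MYBtr. It was 7.36, 7.61 and 7.16 with MYBQKI6, and 6.21, 6.41 and 6.34 with eGFP. In pool 3, therefore, the MYBtr and MYBQKI6 arrays were both lower than in the other pools while MYBQKI5 was at its highest. In pool 3, Qk probe set 17340760 (0.69), Maoa (-0.95) and C230072F16Rik (-1.36) had the sign of the other pools. Maoa was named by a rule that required this, and the others were picked for their values. These signs are therefore no test of the labels. Whether transduction or handling of the pool 3 samples differed, or a sample was exchanged, was not tested. The gene mean of Myb differed by -0.29, -0.56 and 0.11 in pools 1, 2 and 3. Its brightest probe set, 17239679, did not share that order, at 0.09, -0.34 and 0.04. The part of Myb in the result was not tested.

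Genes lowered by MYBQKI6 had a smaller median of the opposite sign. Of 462, 300 were higher with MYBQKI5 than with MYBtr, where 11199 of all 23152 genes were. At an unadjusted p under 0.05, 20 (4.33%) were higher and 5 (1.08%) lower, beside 3.82% and 4.5% of all genes, so the share of higher genes was near the background. In all, 81 (17.5%) were higher in 3 of 3 pools, beside 12.9% of all genes. The median difference was 0.08, with 0.08, 0.28 and -0.10 in pools 1, 2 and 3, 0.17 from pools 1 and 2 alone, and -0.0058 from pools 1 and 3 alone, where the sign turned. The list's median level was 6.39, 6.71 and 6.76 with MYBQKI5, 6.25, 6.50 and 6.85 with MYBtr, and 7.20, 7.38 and 7.38 with eGFP. Both MYB constructs lay under eGFP on these genes in every pool, an order that is favoured because the same eGFP arrays helped to choose the list.

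**Figure D3:**
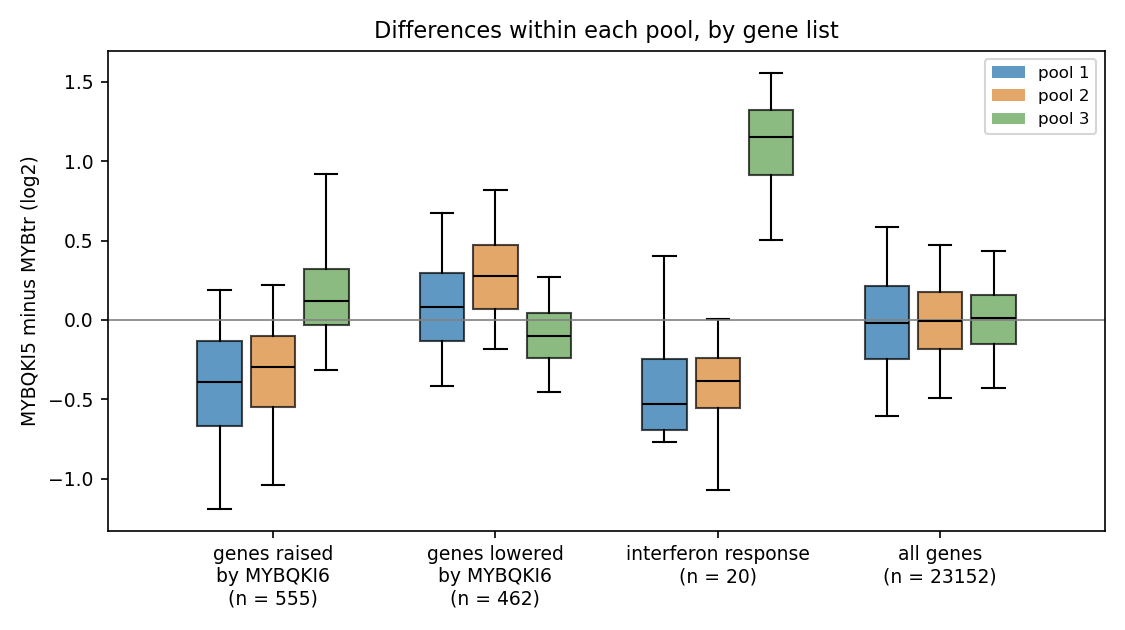
MYBQKI5 minus MYBtr (log2, vertical axis) within pools 1 to 3, as boxes of the quartiles with whiskers at percentiles 5 and 95, for 4 sets of genes. The raised genes have medians of -0.39, -0.30 and 0.12, the lowered genes 0.08, 0.28 and -0.10, the interferon response genes -0.53, -0.39 and 1.15, and all genes stay within 0.03 of 0.

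Single genes of the raised list follow this pattern to different degrees. Kit, the receptor of stem cell factor and a described MYB target, stood at 7.76, 8.20 and 8.60 with MYBQKI5, against 8.38, 8.66 and 8.75 with MYBtr. It was lower in each pool while the groups overlap, by 0.41 on average (SE 0.18, limma adjusted p = 0.587), and eGFP stood at 5.64. Cdk6, the kinase that drives entry into the cell cycle, stood at 8.73, 8.64 and 8.98 with MYBQKI5, against 9.74, 9.61 and 9.31 with MYBtr. Its groups did not overlap, and the difference was -0.77 (SE 0.20, 1.71-fold, limma adjusted p = 0.388). With 9.16 for MYBQKI6 and 7.28 for eGFP, Cdk6 was far above the control with each MYB construct.

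Sema3c, a secreted guidance protein, was split by pool: it stood at 5.45, 5.97 and 5.04 with MYBQKI5, against 9.79, 8.89 and 5.14 with MYBtr. Only pools 1 and 2 set the constructs apart, so the mean difference of -2.45 (SE 0.65, limma adjusted p = 0.388) stands for no single pool. Abca9, a membrane transporter also chosen after its values were seen, had the same shape, with differences of -2.50, -2.13 and -0.03. Mup6, a major urinary protein, differed by -1.63 (SE 0.64, adjusted p = 0.539), and whether its probe sets tell it from its near copies was not tested.

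Zmynd10, which is needed to assemble dynein arms of motile cilia, averaged 7.64 ± 0.54 with MYBQKI5 and 8.21 ± 0.18 with MYBtr (SD, n = 3 each; -0.57, adjusted p = 0.601). Mcub, which inhibits the calcium uniporter of mitochondria, differed by -1.22, -0.99 and 0.72 over the pools. Dgkg, a diacylglycerol kinase, stood at 9.84, 9.88 and 9.88 with MYBQKI5, against 10.34, 10.15 and 9.10 with MYBtr. Its mean difference was 0.0051 (SE 0.24), the mean of opposite pools. The immunity-related GTPases Irgm2 and Igtp, which interferon induces, differed by -0.28 and 0.16, and by 1.24 and 0.96 in pool 3 alone.

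**Figure D4:**
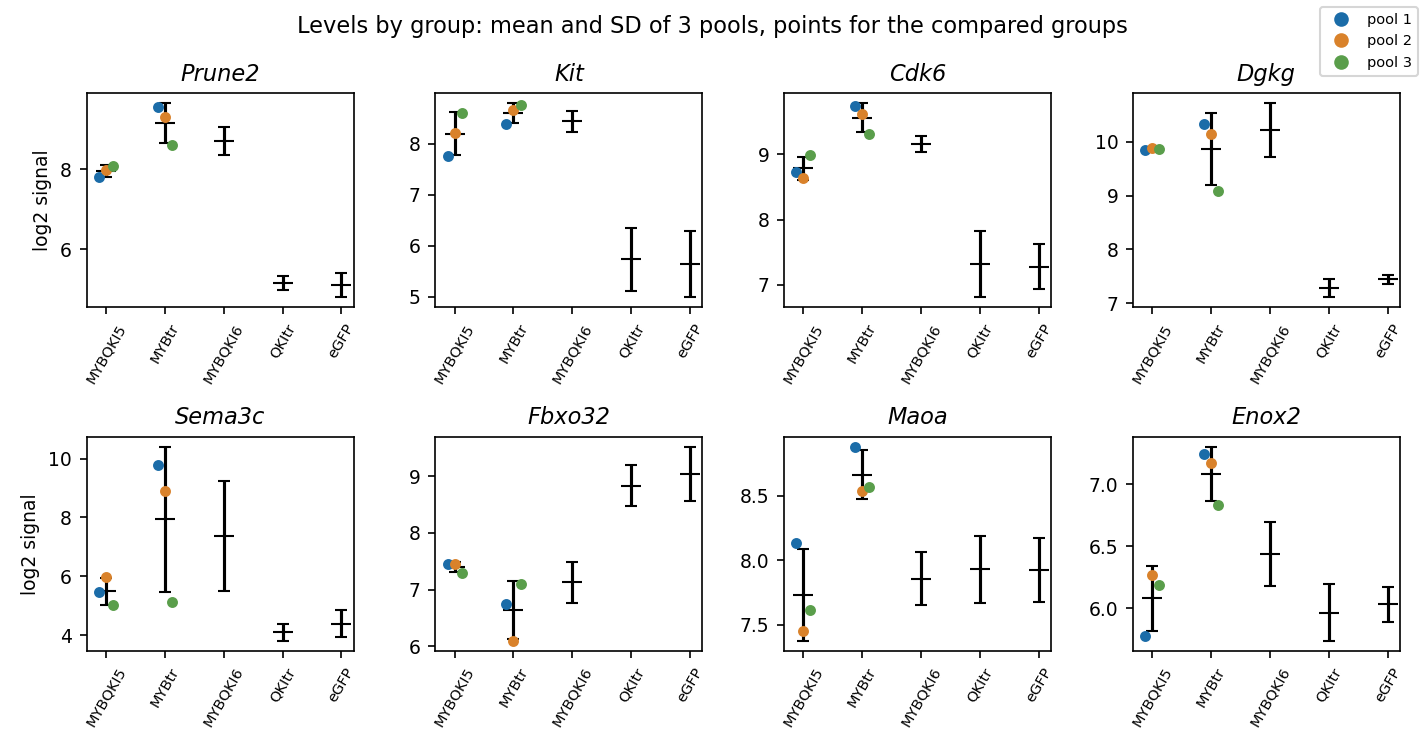
Log2 signal (vertical axes) of 8 genes in the 5 groups, with MYBQKI5 left of MYBtr: black ticks and bars are the mean and SD of 3 pools, and coloured points are the pools of the 2 compared groups. Prune2, Cdk6, Maoa and Enox2 show no overlap between the compared groups, while Sema3c and Dgkg show a MYBtr array of pool 3 (5.14 and 9.10) far from the other MYBtr arrays.

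Among the genes lowered by MYBQKI6, Fbxo32, a muscle ubiquitin ligase subunit also known as atrogin-1, had the largest difference of those named. It stood at 7.46, 7.45 and 7.30 with MYBQKI5, against 6.74, 6.10 and 7.10 with MYBtr, without overlap (0.76, SE 0.22, limma adjusted p = 0.449). Its means of 7.13 with MYBQKI6 and 9.04 with eGFP leave all MYB constructs below control. Xylt1, which starts glycosaminoglycan chains, Agt, the precursor of angiotensin, Sox8, a transcription factor of glial precursors, and Smoc1, a matrix calcium-binding protein, were higher with MYBQKI5 by 0.54, 0.40, 0.42 and 0.38. Igsf21, a synaptic adhesion protein, differed by 0.08. Each of these 5 was lower with MYBQKI5 in pool 3, and their limma adjusted p values were 0.67 or more.

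QKItr, a construct named for QKI alone, called 0 of 23152 genes (0%) against eGFP in limma, so its genes are given as ranks. The 100 genes highest with QKItr had a median difference of 0.02 between MYBQKI5 and MYBtr, with 54 higher. Of these, 10 (10%) were higher and 3 (3%) lower at an unadjusted p under 0.05, beside 3.82% and 4.5% of all genes, and 18 were higher in 3 of 3 pools (12.9% of all genes). The 100 lowest had a median of -0.06, with 63 lower. Of these, 12 (12%) were lower and 1 (1%) higher at an unadjusted p under 0.05, beside 4.5% and 3.82% of all genes. In 3 of 3 pools 32 were lower, beside 13.4% of all genes. The ranks come from the moderated t of the same fit, which shares its estimate of the spread with the difference. Genes of small spread are therefore favoured in both ranks and in any count of small p, so these shares are no measure of a QKI effect. The size of both medians changed with several settings, and so did the sign in 1 setting each.

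The described MYB targets split about evenly. Of 22 genes on that list 21 were measured, 11 higher and 10 lower with MYBQKI5, with a median of 0.0064 and none called. Besides Kit and Cdk6, Bcl2, which blocks cell death, differed by -0.35 (pools -0.71, -0.45 and 0.09) and Myc, a growth regulator, by 0.32 (0.22, 0.72 and 0.01). The relatives of MYB, Mybl1 and Mybl2, differed by -0.05 and 0.39, neither called.

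The genes tied to QKI showed no shared shift. Of 20 measured mRNAs described as QKI targets, 9 were higher and 11 lower (median -0.0031), none called. On the list raised by MYBQKI6 are 5 of the 20, among them Ndrg1, a stress-induced protein of myelinating glia. Ndrg1 stood at 5.92, 7.15 and 7.03 with MYBQKI5, against 6.98, 8.04 and 6.98 with MYBtr. It was lower in pools 1 and 2 and level in pool 3 (-0.63, limma adjusted p = 0.539). Its means were 7.17 with MYBQKI6, 5.23 with QKItr and 4.95 with eGFP. Nfasc, the node protein neurofascin, and Mobp, a myelin protein, differed by 0.30 and 0.21. Of the 5 STAR and related family genes, Khdrbs3 stood at 7.74, 7.54 and 7.98 with MYBQKI5, against 8.06, 8.04 and 8.13 with MYBtr (-0.32, adjusted p = 0.601), while Khdrbs2 and Khdrbs1 differed by 0.30 and -0.19. Of 27 splicing factors 12 were higher and 15 lower (median -0.02), and Srrm4, a factor of neuronal exons, differed by 0.35 (limma adjusted p = 0.49), Srsf7 by -0.28, Elavl4 by 0.29 and Esrp1 by 0.21.

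Most astrocyte, oligodendrocyte, neuron and immune markers were a little higher with MYBQKI5, none of them called, so the lean was not particular to glia. Of all 23152 genes, 11199 were higher. Of 19 astrocyte markers 16 were higher (median 0.23, with 0.30, 0.52 and 0.02 in pools 1, 2 and 3), and 4 of the 19 belong to the genes lowered by MYBQKI6. Their summed level was 12.32 to 12.78 with MYBQKI5 and 12.09 to 12.64 with MYBtr. Sox9, a transcription factor of stem cells and astrocytes, stood at 10.14, 10.03 and 9.88 with MYBQKI5, against 9.57, 9.36 and 9.72 with MYBtr. Its groups did not overlap (0.47, SE 0.14, limma adjusted p = 0.449), and eGFP stood at 10.06. Apoe, a lipid carrier, and Glul, glutamine synthetase, differed by 0.34 and 0.37, while the glutamate transporter Slc1a2 differed by -0.38.

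Of 15 oligodendrocyte precursor markers 13 were higher (median 0.15, pools 0.30, 0.25 and -0.10), and 7 of the 15 are among the genes lowered by MYBQKI6. Their summed level was 11.83 to 12.08 with MYBQKI5 and 11.61 to 12.16 with MYBtr. Olig1, a lineage factor, differed by 0.31 with pools of 0.60, 0.42 and -0.10, and Neu4 and Sox10 each by 0.30 at levels below the median gene. Of 15 myelinating oligodendrocyte markers 10 were higher (median 0.14), with Mal at 0.24, Enpp2 at 0.20 and Mag at 0.14. The list of 19 neural stem cell markers had 8 higher and 11 lower (median -0.0047), and after Sox9 its smallest p belonged to Sox3 (-0.32), Pax6 (-0.21) and Ptprz1 (0.21).

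Microglia and immune markers were dim. Of 14 microglia and immune markers 13 were higher (median 0.18), with summed levels of 8.37 to 8.51 with MYBQKI5 and 8.20 to 8.27 with MYBtr. Cd3e, a T cell receptor chain, differed by 0.51, the cytokine receptor Csf1r by 0.30, Ptprc by 0.27 and Tyrobp by 0.26, all at levels below 5. Of 21 neuron markers 15 were higher (median 0.08), with summed levels of 10.72 to 10.90 with MYBQKI5 and 10.48 to 11.00 with MYBtr, among them Neurod1 (0.37) and Gad1 (0.32), while Neurod6 differed by -0.28. Of 16 vascular and fibroblast markers 9 were higher (median 0.06), with Rgs5 at -0.38, Des at 0.38, Kcnj8 at 0.33 and Acta2 at 0.32.

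The interferon response genes differed in opposite directions between pools. Of 20 measured genes 11 had a higher mean with MYBQKI5 and 9 a lower one (median 0.04), but the pool medians were -0.53, -0.39 and 1.15. All of them were higher with MYBQKI5 in pool 3, where the list's share of lower genes was 0%. Cxcl10, a chemokine, stood at 8.43, 8.55 and 8.00 with MYBQKI5, against 8.51, 9.21 and 6.34 with MYBtr. Mx1, an antiviral GTPase, was higher in each pool (0.91, SE 0.32, limma adjusted p = 0.517), Mx2 differed by 0.41 and Oas1a by -0.24. The list's median level in pools 1, 2 and 3 was 7.33, 7.85 and 7.66 with MYBQKI5, against 7.83, 8.18 and 6.39 with MYBtr. It was 7.74, 8.39 and 6.95 with MYBQKI6, 7.19, 6.84 and 4.78 with QKItr, and 6.73, 7.57 and 5.25 with eGFP. Every group except MYBQKI5 thus had its lowest level in pool 3. Of the 20 genes 11 are also among the 555 raised by MYBQKI6, a small share of that list, and their part in its pool 3 values was not tested.

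Cell cycle genes stood at different levels in the 3 pools with both constructs. The 25 G2 and M phase genes had a median level of 4.92, 6.80 and 7.22 in pools 1 to 3 with MYBQKI5, against 4.86, 6.51 and 7.59 with MYBtr. Their median difference was -0.03, with pool medians of -0.07, 0.42 and -0.40, and Cdk1, the mitotic kinase, differed by -0.31, Mad2l1 by -0.30, Nuf2 by -0.25 and Ccnb2 by 0.25. The 24 S phase genes split 12 to 12 (median -0.0069), with Prim1 at 0.24, Slbp at -0.19, Lig1 at 0.18 and Pola1 at 0.16.

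**Figure D5:**
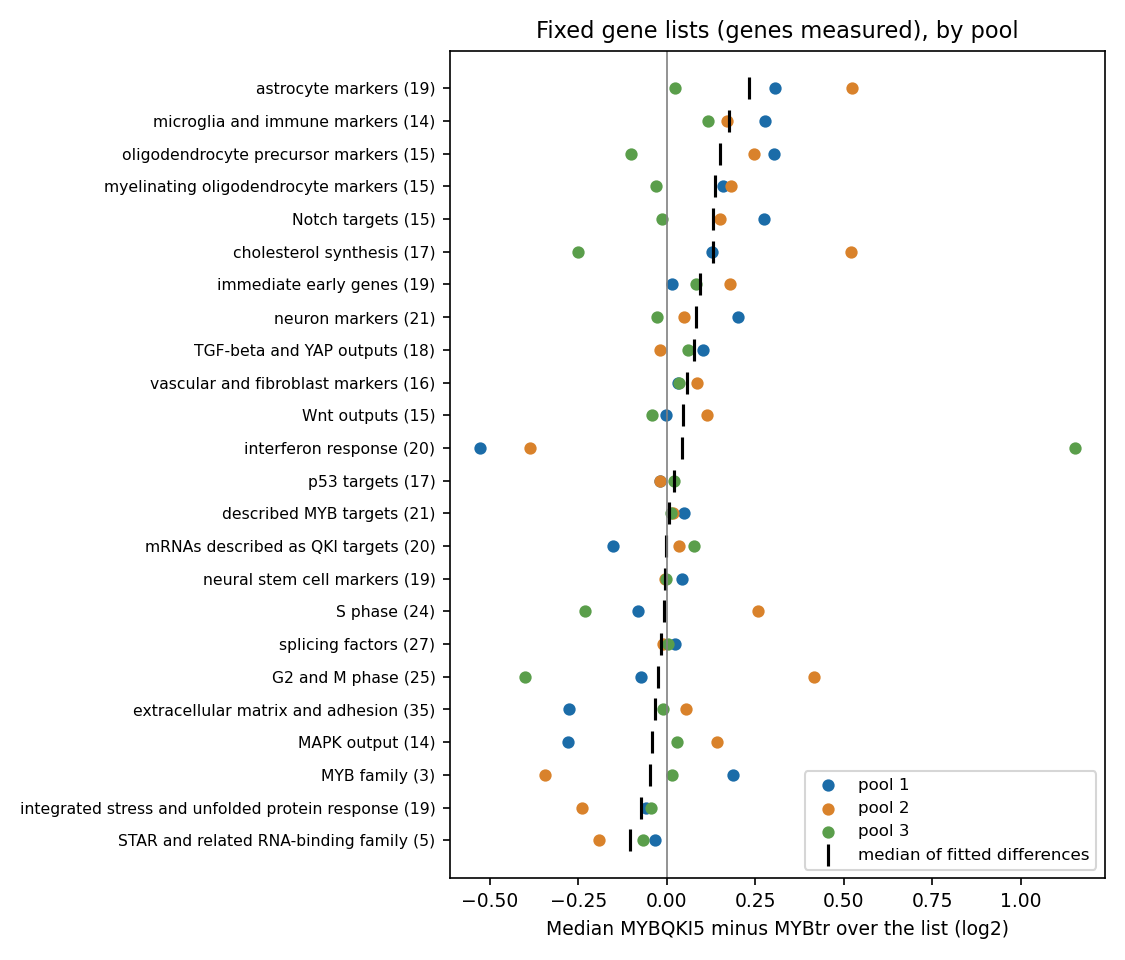
Median MYBQKI5 minus MYBtr (log2, horizontal axis) over each of 24 gene lists, with the number of genes measured in brackets: coloured points are pools 1 to 3 and black ticks the median of the fitted differences. The interferon response list spans -0.53 to 1.15 over the pools, and the astrocyte marker list has the highest fitted median, 0.23.

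Signalling lists held scattered differences, with none called. Of 19 immediate early genes 13 were higher (median 0.09). Fos, a subunit of the AP-1 factor, stood at 6.97, 7.01 and 7.05 with MYBQKI5, against 6.26, 6.18 and 6.47 with MYBtr, without overlap (0.71, SE 0.29, limma adjusted p = 0.55), and eGFP stood at 8.17. Fosl2 differed by 0.42, Dusp1 by 0.39 and Ier3 by 0.34. Of 14 MAPK output genes 6 were higher (median -0.04), with Fosl1 at 0.53, Dusp6 at -0.42, Dusp4 at 0.27 and Etv5 at -0.17. Of 15 Notch targets 10 were higher (median 0.13), with Notch1 at 0.42, Hey2 at 0.39, Nrarp at 0.27 and Notch2 at -0.20.

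In the Wnt list 8 of 15 were higher (median 0.05), yet its 3 members with an unadjusted p under 0.05 were lower and 2 of them were raised by MYBQKI6. Lef1, the nuclear partner of beta-catenin, stood at 5.70, 6.38 and 6.00 with MYBQKI5, against 6.83, 6.92 and 6.12 with MYBtr (-0.60, SE 0.17, limma adjusted p = 0.449). Frat2, a regulator of GSK3, differed by -0.81 and Notum, a Wnt deacylase, by -0.44, and the feedback gene Axin2 differed by 0.35. Of 18 TGF-beta and YAP outputs 10 were higher (median 0.08), with Amotl2 at 0.28, Axl at -0.28 and Tgfbi at 0.23.

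Of 35 matrix and adhesion genes 16 were higher and 19 lower (median -0.03). Prelp, a leucine-rich proteoglycan, stood at 9.86, 9.49 and 9.98 with MYBQKI5, against 11.05, 10.53 and 10.32 with MYBtr, without overlap (-0.86, SE 0.30, limma adjusted p = 0.506). Its eGFP mean was 7.55. Thbs1, thrombospondin 1, differed by -0.76, Fn1, fibronectin, by -0.73 (pools -1.55, -0.62 and -0.02), Lamb1, a laminin chain, by -0.40 and Itga6, a laminin receptor chain, by -0.28.

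Stress and metabolic lists gave small values. Of 19 genes of the integrated stress and unfolded protein response 15 were lower (median -0.07), with Chac1 at -0.50, Trib3 at -0.45, Asns at -0.36 and Pdia4 at -0.28. Of 17 p53 targets 10 were higher (median 0.02), with Cdkn1a at 0.19, Pmaip1 at 0.16, Bbc3 at 0.15 and Ccng1 at -0.14. Of 17 cholesterol synthesis genes 11 were higher (median 0.13, pools 0.13, 0.52 and -0.25), with Srebf2 at 0.28, Cyp51 at -0.33, Sqle at -0.24 and Sc5d at 0.22.

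Because MYB binds DNA, promoter windows were read for the letters TAACNG or CAACNG on either strand. Each window runs from 250 bases before to 50 after a gene's start in RefSeq GRCm38.p6. Such a match was found in 49.7% of all 27025 windows, in 8430 of 17706 windows (47.6%) of the genes tested, in 222 of 437 windows (50.8%) of the genes raised by MYBQKI6 and in 143 of 379 (37.7%) of those lowered. Of the 10 lower and the 10 higher genes of smallest p, 8 each had a window, and 4 of the 8 held a match in both sets. The windows of Maoa and Enox2, which were lower with MYBQKI5 and stood near eGFP there, and of Prune2 and Cdk6, which both constructs kept above eGFP, are shown for comparison, with matches in capitals. Maoa (chrX:16619448-16619747, plus strand) holds 1 match, Enox2 (chrX:49288193-49288492, minus strand) holds 3, and Prune2 (chr19:16955868-16956167, plus strand) and Cdk6 (chr5:3343643-3343942, plus strand) hold 0. No match says only that these letters are not in this window.
Maoa: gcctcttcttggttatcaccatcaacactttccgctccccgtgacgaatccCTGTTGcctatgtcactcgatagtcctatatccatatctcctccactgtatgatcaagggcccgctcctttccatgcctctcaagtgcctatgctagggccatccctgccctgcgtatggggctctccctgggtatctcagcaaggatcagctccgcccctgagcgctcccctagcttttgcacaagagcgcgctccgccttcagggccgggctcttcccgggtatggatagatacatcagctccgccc
Enox2: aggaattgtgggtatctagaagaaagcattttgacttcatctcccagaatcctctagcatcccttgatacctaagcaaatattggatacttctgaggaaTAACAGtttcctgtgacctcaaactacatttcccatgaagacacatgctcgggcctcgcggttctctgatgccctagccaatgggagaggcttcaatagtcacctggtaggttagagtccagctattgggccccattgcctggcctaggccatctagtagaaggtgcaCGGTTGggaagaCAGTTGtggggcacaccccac
Prune2: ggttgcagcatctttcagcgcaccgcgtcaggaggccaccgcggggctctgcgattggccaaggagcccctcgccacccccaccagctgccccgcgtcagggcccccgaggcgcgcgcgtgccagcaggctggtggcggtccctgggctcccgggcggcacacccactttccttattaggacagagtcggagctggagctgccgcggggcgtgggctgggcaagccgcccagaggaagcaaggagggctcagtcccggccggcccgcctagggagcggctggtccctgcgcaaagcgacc
Cdk6: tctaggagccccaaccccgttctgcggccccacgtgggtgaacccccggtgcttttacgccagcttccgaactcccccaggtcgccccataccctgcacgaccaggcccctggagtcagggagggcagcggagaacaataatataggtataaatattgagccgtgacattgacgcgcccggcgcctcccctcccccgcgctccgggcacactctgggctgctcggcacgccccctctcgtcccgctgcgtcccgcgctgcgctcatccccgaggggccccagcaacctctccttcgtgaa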

How the data were processed

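Total RNA of neural stem cells was biotin-labelled and hybridised by a standard Affymetrix protocol, per the labels. The authors deposited 1 value per probe set and array whose range fits a log2 scale. The normalization, software and genome build behind them are not given in the sources used here. Of 269751 probe sets, 233753 named 1 gene symbol through the platform annotation, 5106 named several and 30892 none. Genes were given the mean over the probe sets naming them alone (23152 genes, median of 8 each). Symbols were matched to RefSeq: 20875 were current, 2189 were updated and 88 stayed unmatched.

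Each pool's 2 eGFP arrays were averaged, and the 15 columns of 5 groups were fitted in limma 3.58.1 under R 4.3.3 (data.table, version 1.17.8) with the pool as a block (lmFit, contrasts.fit, eBayes, 8 residual degrees of freedom), with Benjamini-Hochberg adjustment over all genes or probe sets and a threshold of 0.05. The pools were taken as pairs because the comparison was set by pool number. Same-pool MYBQKI5 and MYBtr arrays deviated together from their group means (correlations 0.339 to 0.637 over 3 pairs, against -0.509 to 0.214 over 6 other pairs). Deviations from a group mean cancel out over the pools, so high same-pool values push the others down and the contrast is partly arithmetic. Probe set use was tested with diffSplice on the same model. The fits were tested on simulated data. A single value compared over 3 against 3 unpaired samples cannot reach an exact two-sided p under 0.1, so none is given. Marker sums are log2 of summed linear signal.

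Named genes were calls of 1 direction in all pools, of which there were none. Otherwise they were the 10 of smallest p in each direction with that direction in 3 of 3 pools. Predicted, clone, small RNA, olfactory or vomeronasal receptor and histone cluster names were left out. Myb, Qk, up to 4 genes of smallest p per list, the 10 largest rises and 6 largest falls called with MYBQKI6, and 6 genes of smallest diffSplice p were also named. The members, lists and tests were chosen with earlier results of these data known. Alternatives were no block, other sets of arrays, other gene values, quantile normalization, a filter on dim genes, other variance models, array weights and leaving out arrays or pools. Promoter windows came from RefSeq GRCm38.p6, and Python 3.11.15 with pandas 2.3.3 and matplotlib 3.10.9 made the plots.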

Additional observations from a re-analysis of the deposited data

How the results depend on the processing

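With 3 arrays a group the precision is low, and dim genes and probe sets have differences of uncertain size. In limma the count of called genes was 0 in the main setting, with no replicate block (the unpaired fit) and with the other alternatives except these: 1 on the 6 arrays of the comparison (Styx), 6 after a filter on dim signal (C230072F16Rik, Cntnap4, Enox2, Gm14057, Maoa and Mc5r), 1 with a trended robust variance (Maoa), and 0 to 21 when 1 array or 1 pool was left out. The 21 came without MYBtr of pool 3, 11 of them raised by MYBQKI6, and 3 genes (Abca9, C230072F16Rik and Sema3c) were called without pool 3 of every group. No replicate block gave 1 called probe set against 0, 325 genes with unequal probe set differences against 938, and a median of 0.0058 for the 100 genes highest with QKItr. The count of unequal genes was also 326 on the 6 arrays, 556 without the eGFP columns, 603 with array weights and 595 to 1278 with 1 array or pool left out. The test between the eGFP repeats (252) was chosen after seeing the data. The median of the raised genes was below 0 in every fit (-0.41 to -0.07 with 1 array or pool left out). Every fit kept pool 1 or pool 2, where the raised genes had medians of -0.39 and -0.30, so this sign was favoured. That of the lowered genes ran from -0.1874 to 0.2266. Both lists were drawn again in each setting. The raised list fell to 124 genes with no block, 142 without pool 1 and 42 without pool 2. The -0.1874, without pool 2, rests on 9 genes, and over the 462 genes of the main list the median was -0.0058. The median of the 100 genes highest with QKItr was 0.0841 with the probe set of highest mean, -0.0029 with the median of probe sets, 0.0295 after quantile normalization, 0.0079 after the dim filter, 0.0062 with the trended variance and 0.0288 with array weights. It was 0.0051 to 0.0493 with 1 array left out, and 0.0127, 0.054 and 0.1217 without pools 1, 2 and 3. That of the 100 lowest was -0.1074 with array weights, -0.1109 to -0.0242 with 1 array left out and 7e-04 without pool 2. With the probe set of highest mean Qk turned to -0.0605, Cntnap4 to -0.0369, Igtp to -0.0949 and Dgkg to -0.2666. With the median of probe sets Dgkg turned to -0.0401 and Igsf21 to -0.0329. With 1 array left out Irgm2 ran from -0.7679 to 0.0146, Igtp from -0.1967 to 0.3598, Dgkg from -0.3268 to 0.1976 and Igsf21 from -0.1375 to 0.2639. Without pool 1 Irgm2 turned to 0.1341. Without pool 2 Irgm2 turned to 0.0631, Agt to -0.0458 and Igsf21 to -0.1729, and without pool 3 Igtp turned to -0.2385 and Dgkg to -0.382. The causes were not tested. Myb stayed lower and Qk higher in every fit with an array or pool left out, at -0.43 to -0.09 and 0.07 to 0.31.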
